A study of Mus musculus with 9 samples.

Results

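The genes described here are the myogenic regulators Pax7, Myf5, Myod1, Myog and Myf6, the muscle proteins Des, Musk and Mstn, and the muscle ubiquitin ligases Fbxo32 and Trim63. They were taken as a list of 10 symbols, and a gene was measured from every probe set whose only symbol is that gene, without any filter on dim signals. This gave 9 of the 10 genes, with 83 probe sets, among 16299 genes formed in the same way from 229581 probe sets. Trim63 was not analysed here. The samples are perigonadal white adipose tissue taken at 4 months of age, whose total RNA was hybridised to Affymetrix exon arrays, with 3 arrays from G609G/G609G mice, 3 from LCS/LCS mice and 3 from wild-type (WT) mice, all of them knock-in or wild-type animals with no treatment. G609G and LCS are alleles of Lmna, the lamin A/C gene: G609G activates a cryptic splice site that gives the truncated prelamin A called progerin and is a mouse model of Hutchinson-Gilford progeria, while LCS yields lamin C and no lamin A. Both are carried in every cell, so that no cell type can be singled out as the mutated one. The replicates are called biological in the series' design text, and the sex of the mice is not stated.

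Skeletal muscle is built by a cascade of transcription factors. Pax7 marks the resident stem cells of muscle, the satellite cells, and the basic helix-loop-helix factors Myf5 and Myod1 commit them to the myoblast fate. Myog drives the exit from the cell cycle and the fusion into fibres, and Myf6, also called MRF4, is the family member that persists in mature fibres. Mature fibres also express desmin, the receptor kinase Musk at the nerve contact, the secreted growth inhibitor myostatin and the ligase atrogin-1 of Fbxo32. Transcripts of satellite cells and myoblasts, when set beside those of mature fibres, are used to tell which stage of muscle a sample holds. White adipose tissue is not a tissue in which this cascade normally runs.

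The factors of the Myod1 family bind the E-box, written CANNTG. The pattern is its own reverse complement, so that 1 search finds the matches on both strands, although the letters of a match can differ between them. The 250 bases before the annotated start are shown for 3 genes that differed between the groups and for Myog, which did not, because these genes are known targets of the myogenic factors. RefSeq's promoter table on GRCm38.p6, a later build than the mm9 named for the arrays, held 7 of the 10 genes. Matches to CANNTG are in capitals and each sequence runs 5′ to 3′ on the gene's strand. Mstn (chr1:53061390-53061639, + strand) has 4 matches, the nearest 19 bases before the start. Musk (chr4:58285712-58285961, + strand) has 3 and Des (chr1:75360042-75360291, + strand) has 2, and both include the variant CAGCTG, a subset of CANNTG, at 68 and 36 bases before the start. Myog (chr1:134289754-134290003, + strand) has 2, at 138 and 12 bases.
Mstn: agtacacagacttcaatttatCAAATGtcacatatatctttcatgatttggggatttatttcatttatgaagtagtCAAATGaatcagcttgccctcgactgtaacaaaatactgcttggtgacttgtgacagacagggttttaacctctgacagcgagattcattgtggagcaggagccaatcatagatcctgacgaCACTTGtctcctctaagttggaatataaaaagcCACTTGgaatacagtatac
Musk: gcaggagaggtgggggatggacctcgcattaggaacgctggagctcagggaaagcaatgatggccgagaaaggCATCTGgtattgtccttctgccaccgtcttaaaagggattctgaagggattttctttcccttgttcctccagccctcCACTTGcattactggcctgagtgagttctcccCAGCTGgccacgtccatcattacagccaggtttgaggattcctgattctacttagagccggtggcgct
Des: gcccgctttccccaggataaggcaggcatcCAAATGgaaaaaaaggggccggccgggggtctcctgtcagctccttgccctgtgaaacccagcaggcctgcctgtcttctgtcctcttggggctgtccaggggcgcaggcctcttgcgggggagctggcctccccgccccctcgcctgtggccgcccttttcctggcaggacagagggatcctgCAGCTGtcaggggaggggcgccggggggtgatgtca
Myog: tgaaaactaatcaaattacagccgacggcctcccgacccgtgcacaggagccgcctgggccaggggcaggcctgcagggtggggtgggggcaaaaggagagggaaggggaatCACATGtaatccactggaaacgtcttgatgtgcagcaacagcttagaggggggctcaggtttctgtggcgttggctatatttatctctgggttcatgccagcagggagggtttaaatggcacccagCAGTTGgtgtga
At least 1 match was present in 66.2% of all 32851 promoters of this length, at least 2 in 31.8%, at least 3 in 12.2% and at least 4 in 3.84%, and CAGCTG was present in 13% of them. The windows of Pax7 and Myf5 hold 0 matches. That of Trim63, whose level was not analysed here, holds 3, with CAGCTG at 72 bases before the start. A match is a description of the letters and not a bound site.

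In G609G adipose tissue 5 of the 9 genes rose against WT, namely Myf6, Des, Musk, Mstn and Fbxo32, by 2.48 to 5.0 on the log2 scale. The other four, Pax7, Myf5, Myod1 and Myog, which mark satellite cells, myoblasts and differentiating cells, did not pass the test in either direction. These calls are on the deposited scale. Other scalings, given below, called Myod1 and Myf5 higher or Myog, Myf5 and Pax7 lower. Mature fibres express the genes that rose, though desmin is also present in smooth muscle. They rose beside the mature fibre transcripts described below, and the part of fibre RNA in their levels was not tested. In LCS adipose tissue 0 of 9 genes passed against WT. Levels are log2 intensities and folds are differences of their group means. Calls come from limma's moderated test over all 9 arrays, with Benjamini-Hochberg adjustment over all 16299 genes and a threshold of 0.05. Over all genes 13% were called higher in G609G than in WT and 54.8% lower, so that the 5 of 9 higher stand beside a background of 13% and the 0 of 9 lower beside 54.8%. The arrays of the 2 groups did not overlap, with G609G above WT, for the same 5 genes, against 13.8% of all genes. Levels of different genes come from different probes and are not compared with each other.

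Several facts of the arrays bear on every value. The median of all probe sets averaged 6.57 ± 0.06 in G609G, 7.23 ± 0.04 in LCS and 7.21 ± 0.06 in WT (SD, n = 3 each), and the deposited values have a normalization not given in the sources used here. Relative to the median gene, the G609G arrays lie 0.45 lower than WT on the log2 scale, and the LCS arrays 0.03 higher. On that scale 45.4% of genes were called higher in G609G and 27.7% lower, in place of 13% and 54.8%. Dim genes moved the other way: 888 olfactory receptor genes, which are used mainly by the nose, differed between G609G and WT by a median of 0.45 on the log2 scale, with the 5th to 95th percentiles from -0.03 to 1.52, and a median of -0.01 in LCS minus WT. Their part in the folds of dim genes was not tested. As markers of the labelled tissue, 12 mature adipocyte genes together averaged 11.2 in G609G, 12.4 in LCS and 12.2 to 12.3 in WT. All 12 passed a filter on dim genes, but it uses the mean over all 9 arrays and does not show presence in each group. Lep, the adipocyte hormone leptin, lay under the filter level of 4.86 in G609G and passed through its LCS and WT arrays. Its levels were 4.70, 4.73 and 4.85 in G609G, 11.75, 11.78 and 11.80 in LCS and 10.70, 10.58 and 10.62 in WT. Lmna averaged 7.23 in G609G, 7.92 in LCS and 7.83 in WT, with a fold of -0.60 in G609G minus WT as deposited (adjusted p = 0.000122) and of -0.15 relative to the median gene (adjusted p = 0.119). It does not check the labels because both alleles leave the gene transcribed.

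**Figure D1:**
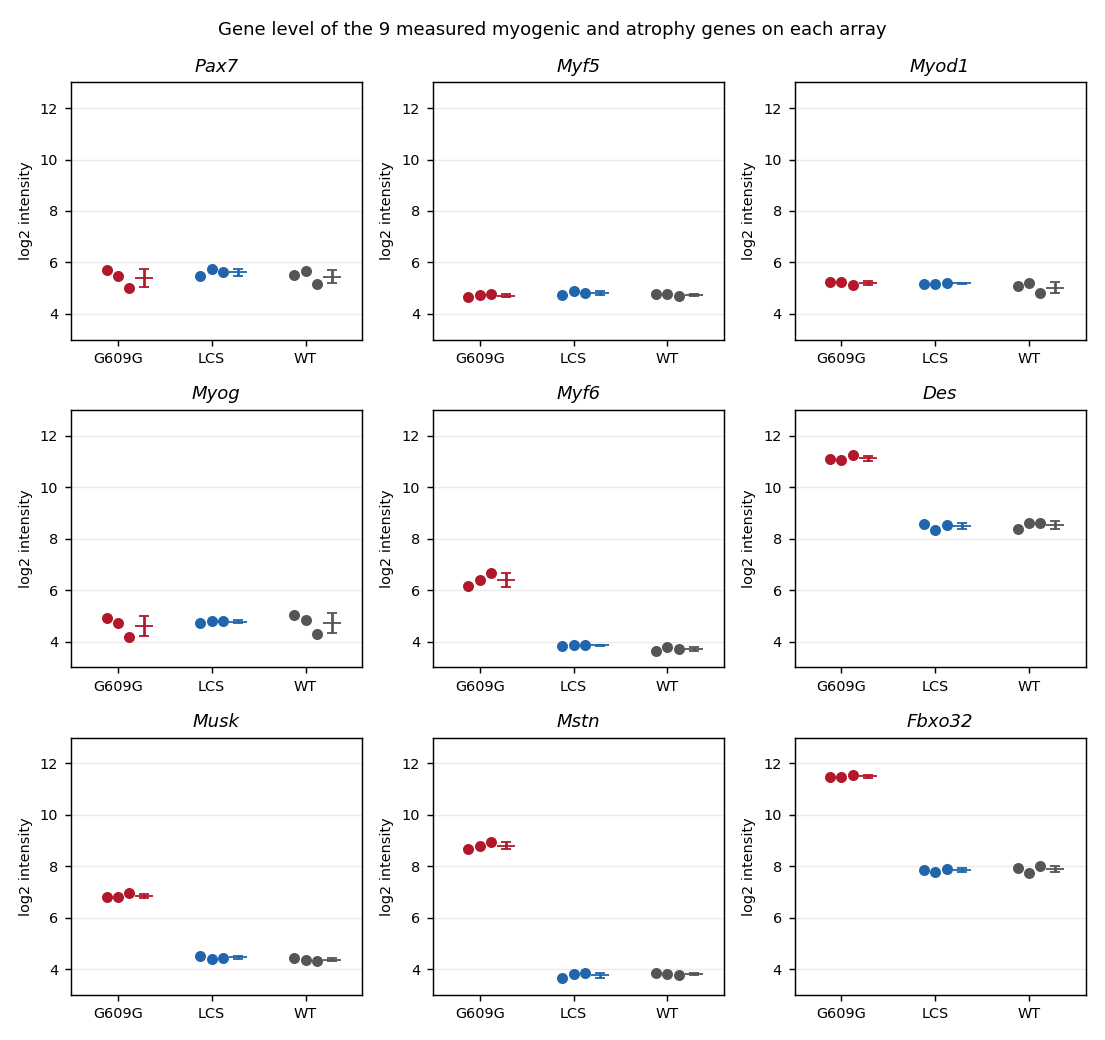
Level of each of the 9 measured genes on every array, as log2 intensity, for G609G, LCS and WT, with each point 1 array and the bar beside each group its mean ± SD (n = 3). Myf6, Des, Musk, Mstn and Fbxo32 are higher on all 3 G609G arrays than on any LCS or WT array, while the groups overlap for Pax7, Myf5, Myod1 and Myog.

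Pax7, the paired-box factor of satellite cells, had levels of 5.71, 5.47 and 5.0 in G609G, 5.49, 5.73 and 5.62 in LCS and 5.50, 5.67 and 5.18 in WT. The 3 groups overlapped, and the G609G arrays spanned more than the gap between any 2 group means. Replicate 3 was the lowest array in both G609G and WT. Its log2 fold in G609G minus WT was -0.06 (SE 0.18, 95% interval -0.44 to 0.33, adjusted p = 0.789). Myf5, which commits progenitors to the myoblast fate, had 4.64, 4.73 and 4.76 in G609G, 4.73, 4.88 and 4.83 in LCS and 4.78, 4.77 and 4.70 in WT, a fold of -0.04 (SE 0.08, interval -0.22 to 0.14, adjusted p = 0.678). On the deposited scale the upper bounds of these intervals are thus 0.33 for Pax7 and 0.14 for Myf5, and the groups overlapped for both. Myod1, the second commitment factor and the gene whose product can turn fibroblasts into myoblasts, had 5.23, 5.24 and 5.13 in G609G, 5.18, 5.17 and 5.21 in LCS and 5.08, 5.19 and 4.80 in WT. The lowest WT array, replicate 3, accounts for most of the spread of that group, and the fold of 0.18 (SE 0.10, interval -0.05 to 0.40) did not pass (adjusted p = 0.152). Of these genes Pax7 and Myod1 lie above the level of 4.86 that marks the 25th percentile of genes, and Myf5 lies under it.

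Single probe sets showed little more. Among the 7 of Myod1 and the 7 of Myf5, 0 passed in G609G minus WT, with folds from 0.07 to 0.28 for Myod1 and from -0.61 to 0.24 for Myf5. For Pax7, 1 of 11 probe sets was lower and 0 higher, with folds from -0.80 to 0.57. That probe set, 5526810, stood at 6.90, 7.14 and 6.74 in G609G, 7.81, 8.22 and 7.98 in LCS and 7.93, 8.11 and 7.15 in WT. Over all probe sets 7.76% were called higher and 41.2% lower in this comparison, so 1 of 11 lower is a smaller share than the background.

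The scaling decides what can be said of the dim regulators. Relative to the median gene, Myod1 and Myf5 passed as higher in G609G, with folds of 0.63 (SE 0.12, adjusted p = 0.000808) and 0.41 (SE 0.09, adjusted p = 0.0018), and Pax7 (0.39, adjusted p = 0.0951) and Myog (0.33, adjusted p = 0.216) did not, giving 7 of 9 genes higher against 45.4% of all genes. Relative to the olfactory receptor genes, a scaling added after the data were seen, Myog, Myf5 and Pax7 passed as lower, with folds of -0.55, -0.47 and -0.49, and Myod1 gave -0.26 (adjusted p = 0.0583). The direction of Pax7, Myf5, Myod1 and Myog therefore turned with the scaling, and none is given for them. The deposited folds of all 4 lie inside the 5th to 95th percentiles of the 4075 genes under the filter level, from -0.59 to 0.86. Myf6, Des, Musk, Mstn and Fbxo32 passed as higher under each of the 3 scalings, and their deposited folds lie above the 95th percentile of the olfactory receptor genes.

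**Figure D2:**
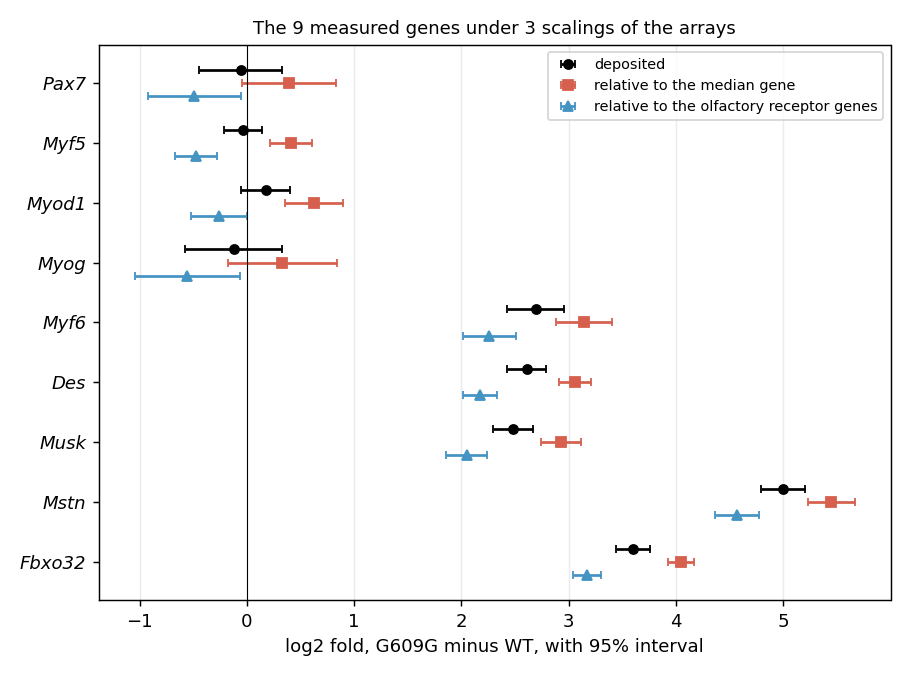
Log2 fold of the 9 measured genes in G609G minus WT on the deposited scale, relative to the median gene and relative to the olfactory receptor genes, with 95% intervals from limma. The 5 genes called higher stay between 2.05 and 5.45 on all 3 scales, while Pax7, Myf5, Myod1 and Myog shift from above 0 to below it.

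In a wider list of satellite cell and myoblast genes, which includes Pax7, Myf5 and Myod1, the counts turned with the scaling. Of 14 measured, 2 rose and 4 fell in G609G against WT as deposited, with a median log2 fold of -0.02, beside 13% of all genes higher, 54.8% lower and a median of -0.29, while relative to the median gene 10 rose and 1 fell, beside 45.4% and 27.7% of all genes. The syndecan Sdc4, which is also expressed in many other cell types, rose with 9.65, 9.66 and 9.65 in G609G against 8.49, 8.33 and 8.42 in WT (fold 1.24, SE 0.05, adjusted p = 3.03e-09), and it was also higher in LCS than in WT (0.66, adjusted p = 3.28e-06). Met, the receptor of hepatocyte growth factor, fell by 1.28, with 7.26, 7.39 and 7.66 in G609G against 8.67, 8.67 and 8.82 in WT. Calcr, the calcitonin receptor of quiescent satellite cells, was called higher at a fold of 0.23 (SE 0.09, adjusted p = 0.0466), from 4.23, 4.44 and 4.57 in G609G against 4.22, 4.19 and 4.15 in WT, and the call was lost with the replicate number as a block (adjusted p = 0.0622). The paired-box factor Pax3 (-0.15, adjusted p = 0.165) and the satellite cell cadherin Cdh15 (0.07, adjusted p = 0.601) did not pass. Calcr also turned to -0.21 relative to the olfactory receptor genes, and only 12 of 22 alternatives kept both its direction and its call. Calcr, Pax3 and Cdh15 lie under the filter level. In LCS minus WT 4 of the 14 rose and 0 fell, beside 15.7% and 11.2% of all genes.

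Myog, the differentiation factor that myoblasts need to fuse, had levels of 4.92, 4.70 and 4.17 in G609G, 4.72, 4.80 and 4.80 in LCS and 5.03, 4.85 and 4.28 in WT. The replicate 3 arrays of G609G and of WT were the lowest of their groups, and the LCS arrays lay within the range of both. The fold of -0.12 in G609G minus WT (SE 0.21, interval -0.57 to 0.33, adjusted p = 0.622) has the widest interval of the 9 genes, and 0 of its 4 probe sets passed, with folds from -0.40 to 0.26. The group of transcripts that accompany differentiation and embryonic muscle held 11 measured genes, Myog among them. Of these 3 rose and 4 fell, with a median fold of -0.12, beside 13% and 54.8% of all genes. Relative to the median gene 6 rose and 2 fell, beside 45.4% and 27.7%. Actc1, the cardiac actin that embryonic and regenerating muscle also uses, rose with 9.22, 9.41 and 9.48 in G609G against 5.93, 5.90 and 5.95 in WT (fold 3.44, SE 0.08, adjusted p = 2.3e-11). Chrna1, the acetylcholine receptor α subunit shared by immature and adult muscle, rose by 1.14 (adjusted p = 2.28e-07). The embryonic troponin Tnnt2 fell by 0.93 and the adhesion molecule Ncam1 fell by 0.81. The fusion protein gene Mymk, listed under an older symbol, gave a fold of -0.14 (adjusted p = 0.235), and the fetal receptor subunit Chrng gave 0.04 (SE 0.11, adjusted p = 0.77). The embryonic and neonatal myosins Myh3 and Myh8 were not analysed here.

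Among the regulators, Myf6 was called higher in G609G on the deposited scale and under both other scalings. Its levels were 6.14, 6.38 and 6.68 in G609G, 3.82, 3.86 and 3.88 in LCS and 3.64, 3.77 and 3.71 in WT. All G609G arrays stood above all others by more than 2 log2 units, and the fold against WT was 2.69 (SE 0.12, interval 2.43 to 2.96, 6.47-fold, adjusted p = 4.91e-09). Each of its 5 probe sets passed as higher, with folds from 1.43 to 4.48. The largest, at probe set 5498316, came from 8.22, 7.93 and 8.31 in G609G against 3.62, 3.77 and 3.62 in WT. Because the gene lies under the filter level in LCS and WT, its mean over all arrays left it out of the filtered gene set. The deposited values carry no detection calls, so whether the LCS and WT signals exceed background was not tested. Among 23 cofactors and inhibitors of the myogenic factors 8 rose and 8 fell, with a median fold of 0.02, beside 13% and 54.8% of all genes. Relative to the median gene 17 rose and 1 fell, beside 45.4% and 27.7%. The muscle TEA-domain factor Tead4 rose with 8.77, 9.07 and 9.28 in G609G against 7.05, 7.12 and 7.11 in WT (1.95, SE 0.11, adjusted p = 2.94e-08), and Mef2c, the MADS-box partner of the family, rose by 0.75. Bhlhe41, a repressor of muscle differentiation, fell by 2.38.

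Des encodes desmin, the intermediate filament that ties the sarcomeres together and is also present in smooth muscle. Its levels were 11.08, 11.07 and 11.24 in G609G, 8.56, 8.34 and 8.52 in LCS and 8.36, 8.59 and 8.62 in WT. LCS and WT overlapped and G609G stood apart, with a fold against WT of 2.61 (SE 0.08, interval 2.42 to 2.79, 6.09-fold, adjusted p = 3e-10). All 13 probe sets passed, with folds from 1.57 to 3.42. Of 15 measured partners of desmin, Des included, 8 rose and 5 fell, with a median fold of 0.38, beside 13% and 54.8% of all genes. Relative to the median gene 11 rose and 2 fell, beside 45.4% and 27.7%. Ankrd2, a stress-responsive ankyrin protein of slow fibres, rose with 8.76, 8.66 and 8.60 in G609G against 5.73, 5.73 and 5.44 in WT (3.04, SE 0.10, adjusted p = 4.36e-10), and the sarcoglycan Sgca rose by 2.91. Vim, the intermediate filament of mesenchymal cells and myoblasts, fell by 0.74 (SE 0.02, adjusted p = 1.95e-10).

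Musk, the receptor tyrosine kinase through which the nerve's agrin clusters acetylcholine receptors, had 6.79, 6.80 and 6.95 in G609G, 4.52, 4.41 and 4.45 in LCS and 4.42, 4.35 and 4.33 in WT. The G609G arrays lay above the rest, with a fold of 2.48 against WT (SE 0.08, interval 2.30 to 2.66, 5.58-fold, adjusted p = 4.36e-10). Of its 19 probe sets 17 rose, by up to 4.50, and the pair that did not pass were 4551886 (3.43, 3.19 and 3.89 in G609G against 3.37, 3.70 and 3.12 in WT) and 5055076 (5.31, 4.72 and 4.98 against 5.21, 4.55 and 4.50). Among 14 genes of the neuromuscular junction 5 rose and 4 fell, with a median fold of 0.13, beside 13% and 54.8% of all genes. Relative to the median gene 10 rose and 4 fell, beside 45.4% and 27.7%. The same shares stand beside the nerve loss and Schwann cell lists below. The adult muscle sodium channel Scn4a rose with 7.10, 7.09 and 7.29 in G609G against 4.78, 4.89 and 4.71 in WT (2.36, SE 0.09, adjusted p = 1.34e-09). Utrn, the utrophin that is enriched at the junction and present in many other cells, fell by 1.53, and Etv5, an ETS factor that acts on synaptic genes, fell by 2.78. In the list of genes that muscle induces after loss of its nerve, which shares Musk, Chrna1, Chrng, Ncam1 and Myog with the lists above, 3 of 10 rose and 4 fell, with a median of -0.04, while relative to the median gene 6 rose and 3 fell. The 7 measured Schwann cell genes held 0 that rose and 5 that fell, with a median of -0.70, while relative to the median gene 1 rose and 3 fell.

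Mstn, which encodes myostatin, the secreted inhibitor of muscle growth made by fibres, had the largest measured difference of the 9 genes between G609G and WT. It had 8.68, 8.78 and 8.95 in G609G, 3.66, 3.80 and 3.85 in LCS and 3.84, 3.82 and 3.76 in WT. LCS and WT overlapped and lay under the filter level, and the fold of G609G against WT was 5.0 (SE 0.09, interval 4.79 to 5.21, 31.9-fold, adjusted p = 3.8e-12). The LCS and WT levels of Mstn, Myf6 and Musk lie within the 5th to 95th percentiles of the olfactory receptor levels, from 3.11 to 5.40. With no detection calls, their folds are those of the measured signals, a fold against a signal at background would be a lower bound, and the order of the folds among the genes is not settled. All 4 probe sets rose, by 4.05 to 5.66, and the largest, 5070915, had 8.90, 9.03 and 9.48 in G609G against 3.36, 3.70 and 3.36 in WT. Of 18 measured genes of the myostatin pathway, Mstn included, 3 rose and 8 fell, with a median fold of -0.18, beside 13% of all genes higher, 54.8% lower and a median of -0.29, while relative to the median gene 11 rose and 5 fell, beside 45.4% and 27.7%. Ltbp3, a latent TGF-β binding protein that also holds promyostatin, fell by 1.60 (SE 0.06, adjusted p = 9.08e-10), with 8.21, 8.27 and 8.38 in G609G against 9.85, 9.84 and 9.96 in WT. Bmp1, a protease that frees myostatin from its propeptide, fell by 1.19, and the signal transducer Smad3 fell by 0.81.

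Fbxo32, the F-box protein atrogin-1 that directs muscle proteins to degradation during wasting, had 11.46, 11.47 and 11.55 in G609G, 7.84, 7.76 and 7.91 in LCS and 7.92, 7.75 and 8.01 in WT. G609G exceeded every other array, with a fold of 3.60 against WT (SE 0.07, interval 3.44 to 3.76, 12.1-fold, adjusted p = 5.55e-12), and LCS and WT overlapped. Of 13 probe sets 12 rose, by up to 5.03. The remaining one, 5323849, had 7.56, 7.41 and 7.60 in G609G, 7.34, 7.42 and 7.50 in LCS and 7.55, 7.99 and 7.49 in WT, a fold of -0.15 (adjusted p = 0.54). It lies above the 25th percentile of probe sets (5.01), and its groups overlapped while every other probe set of the gene rose in G609G. The exon it targets was not looked up here.

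Of 25 measured genes of a wider muscle atrophy list, Fbxo32 included, 17 rose and 6 fell, beside 13% and 54.8% of all genes. The median fold was 0.55, beside -0.29 over all genes. Relative to the median gene 20 rose and 2 fell, beside 45.4% and 27.7%. Pdk4, the kinase that shuts pyruvate out of the mitochondrion in fasting, had 12.45, 12.42 and 12.50 in G609G, 11.52, 11.52 and 11.51 in LCS and 10.91, 10.89 and 10.99 in WT (1.53 in G609G minus WT, SE 0.03, adjusted p = 7.66e-12). The metallothionein Mt2 rose by 0.73 and the F-box protein Fbxo31 by 2.04. Foxo1, the forkhead factor that activates Fbxo32 in wasting muscle, and Klf15, a glucocorticoid-induced factor, rose by 0.74 and 1.65 and were chosen after their values were seen. Among the 6 that fell were the ligase genes Fbxo21 (-1.28) and Nedd4 (-0.64), also chosen after their values were seen. Both also passed as lower relative to the median gene (-0.83 and -0.19). Adipocytes also express Pdk4, Mt2, Foxo1 and Klf15. In LCS minus WT 10 of the 25 rose and 3 fell, beside 15.7% and 11.2% of all genes. Pdk4 gave 0.59 (adjusted p = 1.22e-07) and Mt2 0.52 (adjusted p = 1.95e-09). Fbxo32 itself gave -0.06 (adjusted p = 0.646) and Fbxo31 fell by 0.21 (adjusted p = 0.00644).

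**Figure D3:**
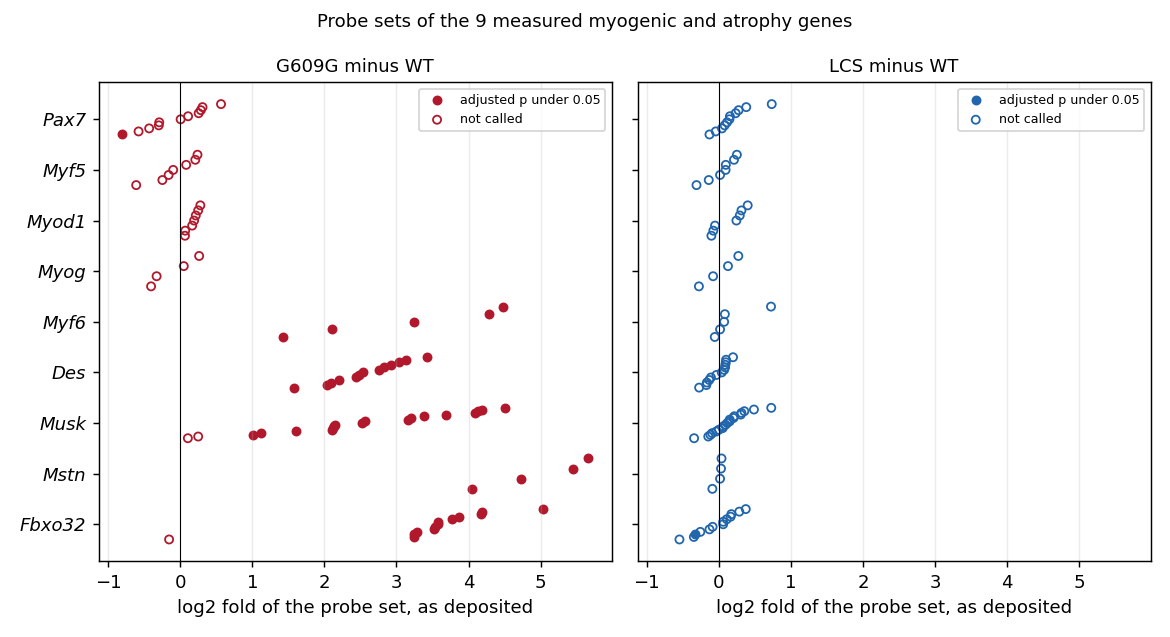
Log2 fold of every probe set of the 9 measured genes in G609G minus WT on the left and in LCS minus WT on the right, with filled points for probe sets at an adjusted p under 0.05 in limma. In G609G minus WT, Des, Mstn and Myf6 have all their probe sets filled to the right of 0, Fbxo32 has 12 of 13 and Musk 17 of 19, while in LCS minus WT 1 probe set of Fbxo32 is filled.

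The rise of these genes stood beside a rise of the mature fibre transcripts. All 22 measured genes of the mature fibre list rose in G609G against WT under the 3 scalings, with a median fold of 5.75. Their mean level ran from 10.8 to 11.0 in G609G, from 5.55 to 5.60 in LCS and from 5.33 to 5.39 in WT. Among them the myosin heavy chain of fast fibres, Myh4, had 11.10, 11.12 and 10.96 in G609G against 3.69, 3.64 and 3.73 in WT. The fast calcium pump Atp2a1 (fold 8.03, SE 0.08), and the fast troponins Tnnt3 (7.73, SE 0.08) and Tnni2 (7.17, SE 0.07), rose as well. Of 8 slow fibre genes 6 rose and 2 fell, with a median of 1.44, beside 13% and 54.8% of all genes. Relative to the median gene 6 rose and 0 fell, beside 45.4% and 27.7%. The slow light chain Myl2 (2.91), the slow calsarcin Myoz2 (2.99) and the slow myosin Myh7 (1.74) were among those that rose. Myl2 and Myh7 averaged under the filter level over all arrays. Those that fell were Atp2a2 (-0.40) and Casq2 (-0.37), and neither passed relative to the median gene. The part of fibre RNA in the levels of Myf6, Des, Musk, Mstn and Fbxo32 was not tested. In a bulk sample a change in the number of cells of a type and a change in RNA per cell cannot be told apart.

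Markers of other tissues were counted beside the shares over all genes. In G609G minus WT these were 13% higher and 54.8% lower, and 45.4% and 27.7% relative to the median gene. In LCS minus WT they were 15.7% and 11.2%. In G609G minus WT 5 of 9 smooth muscle genes rose and 1 fell, with a median of 0.10, among them the calponin Cnn1 (0.90), the smooth muscle myosin Myh11 (0.64) and Tagln (0.44), while the enteric actin Actg2 fell by 1.40. Desmin is also a smooth muscle protein. In LCS minus WT 3 of the 9 smooth muscle genes rose and 3 fell, with folds from -0.80 for Cnn1 to 0.67, and Myh11 fell by 0.69. Des gave -0.05 there (SE 0.08, adjusted p = 0.745). The part of smooth muscle in the level of Des was not tested. Of 9 cardiac genes only Sln, which skeletal muscle also expresses, passed as higher (0.49, adjusted p = 0.007), and 8 were higher relative to the median gene. Sln and Tagln were not called relative to the olfactory receptor genes. The mature adipocyte list had 0 genes that rose and 11 of 12 that fell as deposited, and 3 and 8 relative to the median gene. Of 9 brown adipocyte genes 4 rose and 2 fell, and 7 and 2 on the other scale. Of 14 genes of the epididymis and testis, the organs beside this depot in males, 1 rose and 12 fell in G609G, and 4 rose and 9 fell in LCS. Their mean level ran from 8.53 to 8.67 in G609G, from 9.43 to 9.54 in LCS and was near 11.5 in WT. The part of the neighbouring organs in the results was not tested.

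**Figure D4:**
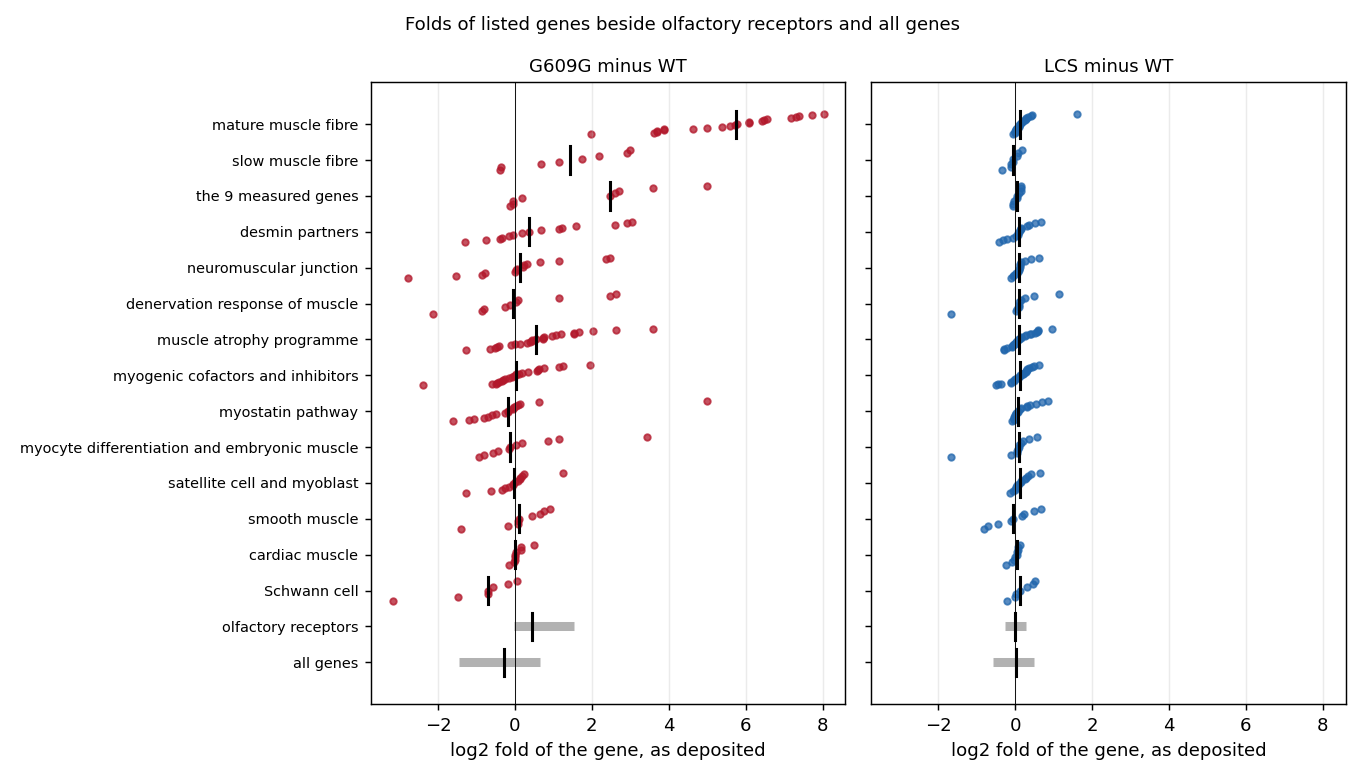
Deposited log2 fold of each measured gene of the muscle and marker lists in G609G minus WT on the left and in LCS minus WT on the right, with 1 point per gene, the median as a black tick, and grey bands from the 5th to the 95th percentile for the olfactory receptors and for all genes. In G609G minus WT the mature fibre list has a median of 5.75 and the satellite cell and myoblast list a median of -0.02, whereas in LCS minus WT the medians are 0.13 for both.

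For the LCS allele 0 of the 9 genes were called higher and 0 lower than in WT, where limma called 15.7% of all genes higher and 11.2% lower. In that fit 0 of the 9 had an unadjusted p under 0.05. The folds ran from -0.06 for Fbxo32 to 0.16 for Myod1 and Pax7, and the adjusted p-values from 0.303 to 0.894. The narrowest interval was that of Fbxo32 (-0.21 to 0.10) and the widest that of Myog (-0.40 to 0.51), with Musk from -0.09 to 0.28 and Des from -0.23 to 0.13. Myf6 was the 1 gene whose LCS arrays all lay above the WT arrays, against 25.8% of all genes, by a mean difference of 0.15 (interval -0.12 to 0.41, adjusted p = 0.446). Limma's spread for it is shared with the G609G arrays, whose SD was 0.27, against 0.03 in LCS and 0.07 in WT. The methods' t-test on LCS and WT alone gave Myf6 an unadjusted p of 0.0241. With its fold threshold that test called 0 of the 9 genes. The 83 probe sets held 0 that were higher and 1 that was lower, against a background of 5.44% lower. It was 4414882 of Fbxo32, with 9.16, 9.11 and 8.89 in LCS against 9.36, 9.34 and 9.44 in WT (-0.33, adjusted p = 0.0197). Mature fibre genes were not wholly level in LCS: 5 of 22 rose, with the skeletal actin Acta1 at 10.73, 10.73 and 10.73 in LCS against 9.03, 9.09 and 9.25 in WT (1.61, SE 0.05, adjusted p = 1.7e-09) and the light chain Myl1 at 0.41 (adjusted p = 0.000113). Ncam1 fell by 1.68 in LCS (SE 0.08, adjusted p = 6.28e-08).

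Set directly against LCS, the G609G arrays gave the same 5 genes as higher, against 14% of all genes, and 0 of 9 as lower, against 52.4%. Mstn differed by 5.03 (interval 4.83 to 5.24), Fbxo32 by 3.66 (3.50 to 3.81), Des by 2.66 (2.47 to 2.84), Myf6 by 2.55 (2.28 to 2.81) and Musk by 2.39 (2.20 to 2.57). Pax7 gave -0.22 (interval -0.61 to 0.17, adjusted p = 0.289), Myf5 -0.10 (adjusted p = 0.278), Myod1 0.01 (adjusted p = 0.917) and Myog -0.18 (adjusted p = 0.466). The probe sets called higher numbered 51 of 83, against 8.9% of all probe sets, and they came from the 5 genes in the same numbers as in G609G minus WT. Lower were 2 probe sets of Pax7, against 41.7%, namely 5526810 (-1.08) and 4703155 (-0.73). In both comparisons the G609G arrays are the same 3, so the agreement between them is not a second measurement. The order of the levels was thus G609G first for Myf6, Des, Musk, Mstn and Fbxo32, with LCS and WT not told apart, and no order for the other four.

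The genes whose levels ran most like those of the risen ones over the 9 arrays were fibre genes in large part. For Mstn they were Nrap, an anchoring protein of the myofibril ends, the Z-disc protein gene Myoz1 and Cacna1s, the voltage sensor of the transverse tubule (Pearson's r = 0.9997, 0.9996 and 0.9996). Musk ran with the calcium release channel Ryr1 (0.9995), Atp2a1 (0.9992) and the costamere protein gene Cmya5 (0.9992). Fbxo32 ran with the muscle glycogen phosphorylase Pygm (0.9994), the stress-induced sestrin Sesn1 (0.9992) and the tubulin Tuba4a (0.9991), and Des with the amino acid transporter Slc43a1 (0.9992), Sesn1 (0.9985) and Usp54 (0.9984). Each r rests on the step between the 3 G609G arrays and the other 6, so it says little about the spread within a group. Pax7 ran most like Hoxa10 (0.978), Ucn (0.9732) and Hba-x (0.9618), and Myod1 like Stab2 (0.9253), Cdh4 (0.9149) and Krt6b (0.9051). Neither Pax7 nor Myod1 passed between the groups, and these names are only the highest r among many genes. Nothing about cell type is drawn from them. The comparison was made only for genes whose mean over all 9 arrays exceeded the filter level, so Myog, Myf5 and Myf6 were left out. Mstn and Musk, and Cacna1s, Myoz1 and Ryr1 named with them, lie under that level in LCS and WT. They passed through their G609G arrays, so the filter itself favours genes with that step and the likeness is a description only.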

How the data were processed

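Total RNA of 9 adipose tissue samples was measured on 1-colour exon arrays. The values the authors deposited are log2, 1 for each probe set of an array, read as log2 intensities from their range; with a normalization not given in the sources used here, and the submitters' processing notes name the build mm9. The number of arrays, 3 per group, limits the precision. Symbols came from the platform annotation: 208397 probe sets had 1 symbol, 3965 several and 17219 none, and genes were formed from the first only, by median polish (at most 10 rounds), without an intensity filter. The tests used R 4.3.3 and limma 3.58.1 (lmFit and eBayes with a trend over 9 arrays), Benjamini-Hochberg adjustment over 16299 genes or 229581 probe sets, and a threshold of 0.05, after a check on simulated data. The data.table package (1.17.8), Python 3.11.15 and matplotlib 3.10.9 served for tables and figures.

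A filter was used for descriptions, for the median gene scale, for the correlated genes and for 1 alternative. It kept 11805 genes that had 3 or more probe sets and exceeded the 25th percentile of gene means (4.86). Pax7, Myod1, Des, Musk, Mstn and Fbxo32 were among them, Musk and Mstn through their G609G arrays. The genes and the 16 other lists (244 symbols, 214 matched, 3 by a synonym) were chosen with earlier results of these data known. Genes named were the listed ones, up to 4 genes per list with the lowest p in G609G minus WT and 2 in LCS minus WT, immature muscle genes, and the 3 genes most correlated with each. Foxo1, Klf15, Fbxo21, Nedd4, Atp2a2 and Casq2 were added after their values were seen. No pair of arrays held over 1.89% identical values. Same-numbered G609G and WT arrays deviated together (r = 0.176, 0.15 and 0.348 across genes). Among the arrays of other groups, 8 of the 9 arrays correlated best with one of their own number across probe sets. Across genes passing the filter 7 did. Between LCS and WT r ran from -0.12 to 0.208, and between G609G and LCS from -0.13 to 0.122. The labels do not give the meaning of the numbers. The main fit did not pair the arrays, and the replicate number entered as a block only as an alternative. Alternatives covered the gene summary, scaling, filter, variance model, arrays in the fit, replicate block, leaving out each array and the methods' t-test. The design text speaks of 10 samples, and 9 were analysed.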

Additional observations from a re-analysis of the deposited data

How the results depend on the processing

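The calls of Myf6, Des, Musk, Mstn and Fbxo32 as higher in G609G kept their direction and their side of the threshold in each alternative that gave them a value, with log2 folds against WT from 2.26 to 3.88 for Myf6, 2.17 to 3.22 for Des, 2.05 to 3.15 for Musk, 4.56 to 5.65 for Mstn and 3.17 to 4.22 for Fbxo32. The intensity filter removes Myf6, Myog and Myf5, and with it 4 genes were higher. With the replicate block 5 genes were higher, as without it, and the block changed the call of none of the 9 genes and ended that of Calcr, with adjusted p = 0.0622 over 9 arrays and 0.104 on the G609G and WT arrays alone. With equal array medians 8 of the 9 genes were higher in G609G minus WT, and relative to the olfactory receptor genes 3 were lower than WT and 4 lower than LCS. Relative to the median gene 0 probe sets of these genes were lower in G609G than in WT and 0 lower than in LCS.

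The direction of the dim regulators turned with the scaling or the summary, always from folds near 0. In G609G minus WT, Myog gave 0.05 from the probe sets above the 25th percentile, 0.25 with quantile normalization, 0.33 relative to the median gene and 0.54 with equal medians. Quantile normalization, the median gene and equal medians gave 0.27, 0.41 and 0.60 for Myf5, 0.34, 0.39 and 0.56 for Pax7, 0.18, 0.30 and 0.49 for Pax3 and 0.20, 0.31 and 0.49 for Mymk. The median of probe sets gave 0.42 for Pax7, and the plain mean gave 0.02 for Pax3 and -0.039 for Chrng, whose median of probe sets gave -0.015. Relative to the olfactory receptor genes Myod1 gave -0.26, Cdh15 -0.36, Calcr -0.21 and Chrng -0.40. In G609G minus LCS the same 3 scalings gave 0.16, 0.30 and 0.50 for Myog, 0.22, 0.38 and 0.56 for Myf5 and 0.18, 0.26 and 0.43 for Pax7, the median of probe sets gave 0.043 for Myog and 0.10 for Pax7, and Myod1 gave -0.43 relative to the olfactory receptor genes. In LCS minus WT, where none of these folds passed, the median of probe sets gave -0.10 for Myod1, -0.075 for Myog and -0.083 for Myf5, array weights gave -0.10 for Myog and 0.0196 for Des, and quantile normalization gave 0.0099 for Mstn. Lmna in LCS minus WT gave -0.47 from the plain mean, -0.029 with quantile normalization and -0.010 with equal medians. The cause of these turns was not tested.

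Leaving out 1 array at a time gave folds in G609G minus WT from -0.36 to 0.086 for Myog (above 0 without WT replicate 1 or G609G replicate 3), -0.10 to 0.0017 for Myf5 (above 0 without LCS replicate 3), -0.25 to 0.13 for Pax7 (above 0 without G609G replicate 3) and -0.045 to 0.18 for Chrng, and in G609G minus LCS from -0.35 to 0.029 for Myog. In LCS minus WT the folds ran from -0.16 to 0.21 for Myog, -0.00083 to 0.14 for Myf5, -0.016 to 0.18 for Pax7, -0.12 to 0.036 for Des, -0.081 to 0.036 for Mstn and -0.054 to 0.11 for Musk. Genes lower in G609G minus LCS numbered 0 to 1, with 1 (Pax7) only without G609G replicate 1. Probe sets lower numbered 0 to 4 in G609G minus WT (4 without WT replicate 3, 2 without G609G replicate 1, and 0 without WT replicate 1 or 2), 1 to 3 in G609G minus LCS (1 without G609G replicate 1 or 3 or LCS replicate 2) and 0 to 2 in LCS minus WT (2 without LCS replicate 1, and 0 without WT replicate 3 or LCS replicate 3), where those higher numbered 0 to 1 (1 without WT replicate 2). With 3 arrays per group and no detection calls, folds of genes near background are the least certain.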
